A study of Arabidopsis with 27 samples.

Results

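Leaves of p2k1p2k2 and glr3.3glr3.6, a pair of Arabidopsis thaliana double mutants, were compared directly with each other, over all 3 treatments of the study and at each treatment. The comparison takes all 9 libraries labelled p2k1p2k2 and all 9 labelled glr3.3glr3.6, which is 18 of the 27 libraries of the series; the other 9 are wild-type Col-0 and are given only as a reference level. In every plant a local rosette leaf received mock solution, 300 µM βγmeATP (an ATP analogue; the sample titles call this treatment ATP, and it is written eATP here) or 100 mM L-Glu, and an untreated systemic rosette leaf was frozen 30 min later. Plants were 4 weeks old, grown in 10 h light and 14 h dark at 50 µmol photons and 21 °C, and each library came from a pool of 8 plants. Each of the 6 mutant groups held 3 libraries, numbered 1 to 3 in the labels, and a library is named here by genotype, treatment and number (p2k1p2k2 mock 1). The labels list no transgene or further mutation in either line and give no allele names.

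Glutamate receptor-like channels are cation channels of plant membranes that open on amino acids, and GLR3.3 and GLR3.6 are known for carrying electrical and calcium signals from a wounded leaf to distant leaves. P2K1 (also called DORN1) and P2K2 are lectin receptor kinases of the plasma membrane that bind extracellular ATP released by damaged cells. The names of the lines say that glr3.3glr3.6 lost the channels and p2k1p2k2 the kinases, so the comparison sets leaves named for a missing ATP receptor pair against leaves named for a missing glutamate-gated channel pair.

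Values are FPKM, which are fragment counts corrected for gene length and for library size, and differences are p2k1p2k2 minus glr3.3glr3.6 on the log2(FPKM + 1) scale, which understates the difference of genes with low FPKM. Tests were limma fits across 16594 genes, those whose mean FPKM over the 18 libraries was 1 or more, two-sided, with treatment and replicate number as blocks and Benjamini-Hochberg adjustment over all of these genes; calls were made where the adjusted p was under 0.05. FPKM hold no read counts, so absolute depth is unknown; relative depth, read from the steps between low values, ran from 0.862 to 1.39 over the 18 libraries. Replicates of a group correlated at 0.938 to 0.974 across genes. The 6 libraries of number 1 stood apart from the other 12 on the first principal component, which held 29.5% of the variance. After group means were removed, each library was compared with those of the other genotype only. For all 18 libraries, the best correlated of these had their own number. The leaf label held: summed FPKM of 20 photosynthesis genes lay between 69100 and 86300 in every library, 5 root markers together reached at most 0.281 FPKM and 6 flower markers at most 0.696. Whether the pools of a group came from separate sowings is not stated, so the p-values speak for these pools only. They measure the spread left between pools after treatment and replicate number were fitted, without the spread between numbers. In the comparison over all treatments, this remainder also held any change of the genotype difference from treatment to treatment.

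The genes for which the lines are named come first. GLR3.6 (AT3G51480) read 106, 73.3 and 77.7 FPKM in glr3.3glr3.6 mock 1, 2 and 3, then 88.1, 70.5 and 122 after eATP and 90.4, 101 and 135 after L-Glu. In p2k1p2k2 it ran from 0.814 to 1.67 FPKM with a median of 1.09, so every library labelled glr3.3glr3.6 was far above every library labelled p2k1p2k2. The difference was -5.49 ± 0.11 (SE, adjusted p = 1.90e-14, limma), with means of 95.9 ± 22.1 and 1.12 ± 0.242 FPKM (SD, n = 9 each); Col-0 stood at 1.06 ± 0.217. GLR3.3 (AT1G42540) ran from 5.85 to 8.05 FPKM in glr3.3glr3.6 (median 7.11) and from 3.43 to 5.22 in p2k1p2k2 (median 4.11), again with no overlap (-0.65 ± 0.07, adjusted p = 6.14e-05, limma). P2K2 (AT3G45430) read 37.8, 14.6 and 16.4 FPKM in p2k1p2k2 mock, 18.4, 6.15 and 14.1 after eATP and 17, 10 and 17.5 after L-Glu. In glr3.3glr3.6 it stayed between 0.308 and 0.673 FPKM (difference 3.47 ± 0.18, adjusted p = 1.15e-08, limma). P2K1 (AT5G60300) ran from 3.44 to 10.2 FPKM in p2k1p2k2 (median 6.05) and from 1.27 to 2.37 in glr3.3glr3.6 (median 1.75), a difference of 1.37 ± 0.14 (adjusted p = 4.25e-05, limma).

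Each of these 4 transcripts was therefore higher in the line named for its loss than in the other line, and higher than in Col-0 on average. A value per gene carries no position along the transcript, so these levels do not address whether an intact protein is made. In a list of 5 tested clade 3 channels 2 were called, GLR3.6 and GLR3.3, and of 5 tested lectin receptor kinases of the same subclade 3 were, P2K2, P2K1 and LECRK-I.4. Over all 16594 genes tested 2.8% were called. Both list counts include the targeted genes, and no other tested channel was called. P2K2 and LECRK-I.4 averaged under 1 FPKM in glr3.3glr3.6 and passed the filter through p2k1p2k2, while 6 of the 11 listed kinases did not pass. All directions below are between libraries labelled p2k1p2k2 and libraries labelled glr3.3glr3.6.

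The genes beside the 4 loci were examined in the reference gene order. Of the 40 annotated genes within 5 places of a targeted gene, 31 were in the table, 16 passed the filter at a mean of 1 FPKM, 3 were called and 13 were not. The share called over all genes tested was 2.8%. The filter takes the mean over both lines. TMT3 and LECRK-I.4, described next, averaged under 1 FPKM in 1 line and passed through the other. The count of 3 among 16 is therefore a description and was not tested against that share. TMT3 (AT3G51490) lies next to GLR3.6 and encodes a tonoplast carrier of sugars. It ran from 17.3 to 50 FPKM in glr3.3glr3.6 (median 34.8) and from 0.0386 to 0.292 in p2k1p2k2 (-4.84 ± 0.15, adjusted p = 5.49e-12, limma). PMI1 (AT1G42550), needed for chloroplast movement and next to GLR3.3, ran from 49.1 to 88.7 FPKM in glr3.3glr3.6 and from 23.8 to 37.7 in p2k1p2k2 (-1.10 ± 0.06, adjusted p = 2.19e-08, limma). The libraries did not overlap for either gene, and Col-0 lay with p2k1p2k2 for both, at 0.09 ± 0.0361 and 28.9 ± 5.41 FPKM. LECRK-I.4 (AT3G45420), a lectin receptor kinase related to P2K2 and next to it but for 1 gene, was 0.44 higher in p2k1p2k2 (1.60 ± 0.273 against 0.929 ± 0.226 FPKM, adjusted p = 0.0101, limma), and its call was lost without the replicate block (adjusted p = 0.0741). P2K2, P2K1 and LECRK-I.4 belong to a family of similar genes, between which the authors' counting could have divided reads.

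**Figure D1:**
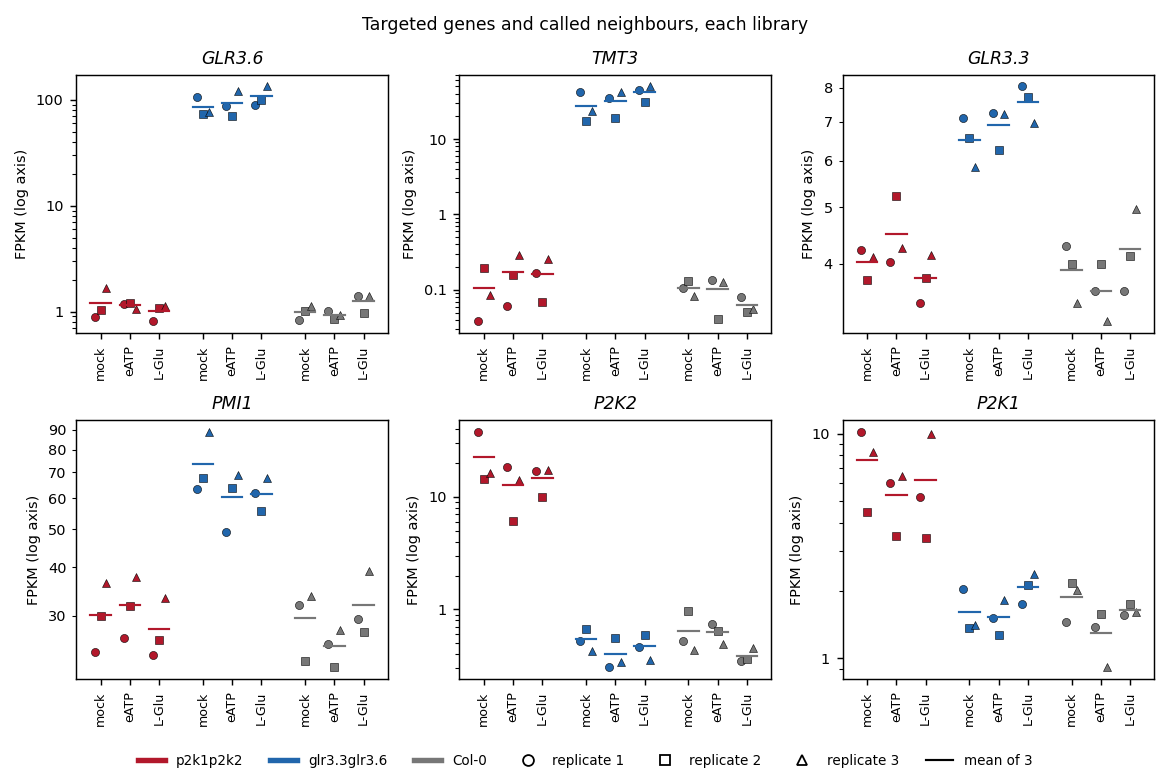
FPKM of GLR3.6, TMT3, GLR3.3, PMI1, P2K2 and P2K1 in each library on log axes, by treatment, with colour for genotype, marker shape for replicate number and a bar at the mean of 3. The first 4 genes are higher in every glr3.3glr3.6 library than in any p2k1p2k2 library, and P2K2 and P2K1 are higher in every p2k1p2k2 library.

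Over the 3 treatments 464 of 16594 genes were called, 2.8% of those tested: 213 were higher in p2k1p2k2 (1.28%) and 251 lower (1.51%). Most of these differences were small. The median size was 0.33 on the log2 scale, 360 of the 464 genes (77.6%) differed by under 0.5, and 9 higher and 11 lower genes differed by at least 1. A total of 263 called genes had the same sign in all 9 pairs of libraries of the same treatment and number, 118 of them higher and 145 lower. The 9 libraries of one line did not overlap with the 9 of the other for 32 genes (0.193%), 15 higher and 17 lower in p2k1p2k2, and all 32 were called. On the 5 nuclear chromosomes 2.54% to 3.4% of the genes tested were called.

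The count depended on how libraries were treated. Without the replicate block 52 genes were called. It fell to 269 without glr3.3glr3.6 L-Glu 1 and to 305 without p2k1p2k2 eATP 1, and lay within 1.5 times of 464 without any other single library. The split moved with scaling: 45.9% of called genes were higher in p2k1p2k2 as deposited and 28.8% after median-of-ratios scaling (125 higher, 309 lower). Of the 58 genes named below or above for the comparison over the 3 treatments, 47 were called whichever single library was left out, and 22 were also called without the block. Of the same genes 23 were called whichever replicate number was left out, and 14 when the treatments were averaged within genotype and number, an alternative chosen after seeing the data: GLR3.6, TMT3, AT1G75945, MRD1, AT1G07887, PMI1, LBD26, AT3G61028, P2K2, XTH19, ORTHL, AT2G08735, HSP90.1 and QQS. Averaged in this way GLR3.3, P2K1, ERF6 and AT3G60940 each had an adjusted p of 0.083, and ERF5 one of 0.0918.

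Among the genes higher in p2k1p2k2, QQS stood out after P2K2. QQS (AT3G30720) is an orphan gene known for its link to leaf starch and for expression that varies between lines with DNA methylation. It read 34.7, 69.8 and 59.2 FPKM in p2k1p2k2 mock, 55, 75.8 and 70 after eATP, and 32.8, 62.3 and 73.2 after L-Glu. All 9 glr3.3glr3.6 libraries were lower, from 4.74 to 13.8 FPKM with a median of 7.21, and Col-0 lay between 7.40 and 13.4. The mean was 7.02-fold higher in p2k1p2k2 (difference 2.69 ± 0.20, adjusted p = 9.99e-07, limma).

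ORTHL (AT4G08590), a relative of the proteins that bind methylated DNA and maintain methylation, ran from 5.37 to 8.87 FPKM in p2k1p2k2 (median 6.93) and from 1.68 to 2.69 in glr3.3glr3.6 (median 2.30). The groups did not overlap, the mean was 2.99-fold higher in p2k1p2k2 (1.25 ± 0.08, adjusted p = 6.45e-08, limma), and Col-0 (2.19 ± 0.467 FPKM) lay with glr3.3glr3.6. It was the only called gene of 15 tested from a list of genes for DNA methylation and demethylation; the median of that list was -0.04. LBD26 (AT3G27940), a transcription factor of the LOB-domain family, was 9.53 ± 1.82 against 3.51 ± 0.762 FPKM (1.22 ± 0.11, adjusted p = 9.99e-06, limma). MYB3R-5 (AT5G02320), a repressor of cell cycle genes, was 4.99 ± 1.04 against 2.32 ± 0.50 FPKM (adjusted p = 4.20e-04, limma), and neither gene's libraries overlapped. AT3G61028 (4.03 ± 1.45 against 0.624 ± 0.262 FPKM), the lncRNA AT2G08735 (2.50 ± 0.759 against 0.441 ± 0.497) and AT3G60940 (2.06 ± 0.716 against 0.494 ± 0.294) were higher by 1.60, 1.32 and 1.02. For AT2G08735 the Col-0 mean, 1.94 ± 0.975 FPKM, was nearer to p2k1p2k2. The other genes of the 15 highest were the ncRNA AT4G04223 (1.02), the drought-induced caleosin RD20 (0.78), and 4 genes taken up with their groups below.

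Beside GLR3.6 and TMT3, 3 transcripts were near 0 in p2k1p2k2 and abundant in glr3.3glr3.6. For all 3, the Col-0 libraries overlapped with those of p2k1p2k2 and not with those of glr3.3glr3.6. AT1G75945 ran from 14.1 to 21.5 FPKM in glr3.3glr3.6 and from 0 to 0.677 in p2k1p2k2 (-3.85 ± 0.10, adjusted p = 9.12e-13, limma). MRD1 (AT1G53480) ran from 12.1 to 21.3 FPKM against at most 1.37 (-3.67 ± 0.12, adjusted p = 1.49e-11, limma), and the lncRNA AT1G07887 from 10.3 to 19.6 against at most 2.44 (-3.49 ± 0.21, adjusted p = 6.12e-08, limma). In the reference order of the tested genes MRD1, AT1G07887 and HEI10 (AT1G53490), which promotes crossovers in meiosis, are neighbours, and HEI10 was lower too (0.312 ± 0.201 against 1.95 ± 0.706 FPKM, -1.14 ± 0.13, adjusted p = 1.34e-04, limma). Whether counting used strand is not stated, so reads of any overlap between these neighbours cannot be told apart. Of the 464 called genes, 10.6% had a called gene directly beside them in the order of tested genes, against 5.35% of the other genes tested; 26 adjacent pairs were both called, 20 of them with the same sign.

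A set of 16 genes was called in the mock, the eATP and the L-Glu contrast of the fit on all 18 libraries, 12 of them described above: GLR3.6, TMT3, AT1G75945, MRD1, AT1G07887, GLR3.3, PMI1, P2K2, QQS, AT3G61028, ORTHL and LBD26. The other 4 were XTH19, ERF6, BPS1 (AT1G01550) and its neighbour AT1G01540. In a fit of the 6 mock libraries alone 2 genes were called in all, both lower in p2k1p2k2, so most of the 16 were not called there. The fit of the 6 L-Glu libraries alone called 11 genes, 3 higher and 8 lower. In these fits of a treatment alone GLR3.3 was called in none of the 3 treatments, and ERF6 was not called in mock or after L-Glu.

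**Figure D2:**
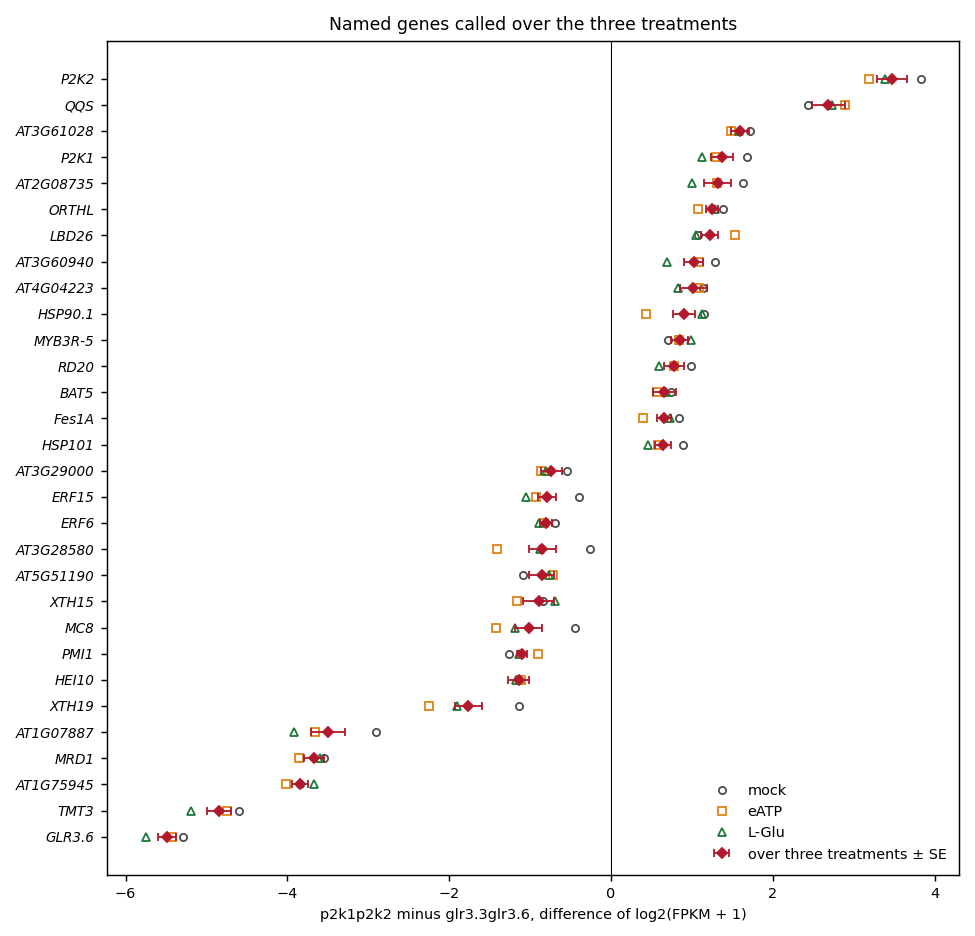
Difference between p2k1p2k2 and glr3.3glr3.6, in log2(FPKM + 1), for the 15 highest and 15 lowest called genes with the same sign in all 9 pairs; diamonds give the value over 3 treatments with its SE, open markers the value in each treatment. GLR3.6 (-5.49), TMT3, AT1G75945, MRD1 and AT1G07887 (-3.49) form a group of low values apart from the rest, and P2K2 (3.47) and QQS (2.69) lead the high ones.

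In a list of 19 tested genes for reactive oxygen and high light, 4 were called, all lower in p2k1p2k2, and 15 were not. Over all genes tested 1.51% were called lower. In the list 9 differences were positive and 10 negative, and its median was -0.03 against 0.03 for all genes tested. ERF6 (AT4G17490), an ethylene response factor active in oxidative stress, read 111, 143 and 127 FPKM in p2k1p2k2 mock, 122, 124 and 109 after eATP and 104, 114 and 106 after L-Glu. In glr3.3glr3.6 it read 206, 230 and 178, then 251, 206 and 179, and 256, 192 and 162, above p2k1p2k2 in every library. The mean was 1.76-fold higher in glr3.3glr3.6 (-0.80 ± 0.08, adjusted p = 2.33e-05, limma), and Col-0 lay between, at 163 ± 29.1. Its relative ERF5 was lower as well (42.0 ± 5.30 against 65.4 ± 11.7 FPKM, -0.62, adjusted p = 0.00101, limma). RBOHD (AT5G47910), the NADPH oxidase that makes the oxidative burst outside the cell, was 84.0 ± 12.5 against 117 ± 21.2 FPKM (-0.47, adjusted p = 0.00688, limma), and the zinc finger factor ZAT10 was 201 ± 27.3 against 268 ± 48.3 (-0.41, adjusted p = 0.00614). All 4 were lower in p2k1p2k2 in 9 of 9 pairs; without the replicate block ERF6 and ERF5 were called and RBOHD (adjusted p = 0.132) and ZAT10 (0.148) were not.

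In a list of 21 tested genes of early immune signalling, 5 were called lower in p2k1p2k2 and 1 was called higher (median -0.13). The shares over all genes tested were 1.51% lower and 1.28% higher. WRKY40 (AT1G80840), a transcription factor induced early by microbial patterns, ran from 171 to 273 FPKM in p2k1p2k2 and from 192 to 385 in glr3.3glr3.6 (-0.42 ± 0.07, adjusted p = 0.00327, limma). MPK3, a MAP kinase of pattern-triggered signalling, was 300.4 ± 32.5 against 419 ± 94.7 FPKM (-0.46), and WRKY33 was 369 ± 46.7 against 498 ± 99.1 (-0.42). These 3 genes were lower in 9 of 9 pairs. WRKY18 (-0.47) and CYP81F2 (-0.44), a P450 of indole glucosinolate modification, were lower in 8 of 9 pairs. The exception was FLS2 (AT5G46330), the receptor for bacterial flagellin, at 37.7 ± 6.92 FPKM in p2k1p2k2 and 28.7 ± 3.87 in glr3.3glr3.6 (0.38 ± 0.06, adjusted p = 0.00519, limma). CYP81F2 lost its call without glr3.3glr3.6 mock 2, p2k1p2k2 eATP 1, eATP 2 or mock 1 (adjusted p up to 0.0523) and WRKY18 without any of 8 libraries (up to 0.0589), and none of the 6 was called without the replicate block (0.111 to 0.507).

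The 15 lowest genes by rule also hold ERF15 (AT2G31230), another ethylene response factor, at 13.8 ± 3.29 against 25.5 ± 10.4 FPKM (-0.79). AT5G51190 was 65.8 ± 28.0 against 115 ± 31.0 (-0.86), and the metacaspase MC8 7.96 ± 4.72 against 16.3 ± 8.27 (-1.02). AT3G28580 (-0.85) and AT3G29000 (-0.74) complete them. Each was lower in 9 of 9 pairs, as the rule that chose them requires, and the libraries of the lines overlapped. By limma 0 of 20 tested genes of calcium and touch signalling were called (median -0.14, 13 of 20 negative), and 0 of 16 for salicylate and systemic acquired resistance (median -0.13, 13 of 16 negative). With 2.8% of all genes called, a count of 0 in lists of this size is near the background. CML38, a calmodulin-like protein, stood nearest to a call among the former, at 252 ± 45.7 against 313 ± 45.2 FPKM (-0.32, adjusted p = 0.0769, limma).

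Heat shock genes encode chaperones that hold or refold proteins. Of 12 listed, 4 were below the filter. Of the 8 tested, 3 were called higher in p2k1p2k2 and 5 were not called, against 1.28% called higher over all genes tested. In this list 7 had a positive difference, and the median was 0.52. HSP90.1 (AT5G52640) read 7.68, 3.36 and 12 FPKM in p2k1p2k2 mock and 2.44, 1.43 and 4.42 in glr3.3glr3.6 mock. After L-Glu it read 5.37, 4.73 and 10.5 against 2.44, 1.24 and 4.19, and after eATP 9.95, 2.90 and 8.66 against 6.11, 2.36 and 6.06. The library of number 2 was the lowest of every group, and p2k1p2k2 was higher in all 9 pairs (0.90 ± 0.14, adjusted p = 0.00226, limma). HSP101, a disaggregase, was 4.39 ± 1.63 against 2.38 ± 0.748 FPKM (0.64, adjusted p = 0.00327) and HSP70 (AT3G12580) 12.3 ± 6.38 against 6.79 ± 3.39 (0.76, adjusted p = 0.0222; 7 of 9 pairs). Fes1A, a partner of HSP70 that is among the 15 highest by rule, was 12.0 ± 3.53 against 7.39 ± 2.83 (0.66). None of these 4 was called without the replicate block (adjusted p = 0.204 to 0.501), and Col-0 means lay from 3.6 to 13.3 FPKM, between the lines or above them. The library Col-0 eATP 3 weighed on these means. HSP70 read 35.1 FPKM there and 8.85 to 11.9 in the other Col-0 libraries, and HSP90.1 read 15.6 against 2.4 to 4.4.

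Glucosinolates are sulphur compounds of the cabbage family that defend leaves against insects. Of 17 tested genes for their synthesis, transport and breakdown, 6 were called higher in p2k1p2k2 and 1 was called lower (median 0.19). Over all genes tested these shares were 1.28% and 1.51%. The 6 were 4 enzymes of the aliphatic branch, which starts from methionine, with the transporter GTR2 and ESP, which steers breakdown to nitriles. MAM1 (AT5G23010), which lengthens the methionine chain, read 47.9, 26.1 and 43.9 FPKM in p2k1p2k2 mock against 20.3, 16.4 and 32.3 in glr3.3glr3.6 mock, and was higher in all 9 pairs (46.7 ± 14.3 against 29.6 ± 8.72, 0.64 ± 0.13, adjusted p = 0.0162, limma). BCAT4, the aminotransferase of the first step, was higher by 0.70, CYP79F1 by 0.86, CYP83A1 by 0.54, GTR2 by 0.35 and ESP by 0.34. BAT5, a chloroplast carrier for the same branch that is not in the list, was among the 15 highest by rule (3.53 ± 1.33 against 1.84 ± 0.703 FPKM, 0.66, adjusted p = 0.0223). The lower gene was MYB51 (AT1G18570), an activator of the indole branch, at 116 ± 12.4 FPKM in p2k1p2k2 against 176 ± 33.3 in glr3.3glr3.6 (-0.58 ± 0.08, adjusted p = 0.0013, limma; lower in 9 of 9 pairs), while Col-0 stood at 118 ± 24.0. MYB51 was called without the block, and none of the 6 higher genes was (0.175 to 0.306). BCAT4 also lost its call without glr3.3glr3.6 L-Glu 1 (adjusted p = 0.0512), CYP79F1 without any of 6 libraries (up to 0.0589) and GTR2 without any of 10 (up to 0.0634).

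Of 17 tested growth hormone and cell wall genes, 5 were called, all lower in p2k1p2k2, and 12 were not. Over all genes tested 1.51% were called lower. The list held 6 positive and 11 negative differences, with a median of -0.05. XTH19 (AT4G30290), which cuts and rejoins xyloglucan chains of the wall, read 1.90, 1.67 and 0.231 FPKM in p2k1p2k2 mock, 0.667, 0.519 and 0.350 after eATP and 2.02, 1.00 and 0.415 after L-Glu. In glr3.3glr3.6 it read 7.16, 3.17 and 1.98, then 11.5, 4.26 and 4.55, and 8.84, 7.14 and 4.60. Every p2k1p2k2 library was below its partner, though the highest of them (2.02) passed the lowest of glr3.3glr3.6 (1.98) (-1.76 ± 0.17, adjusted p = 2.83e-05, limma), and the mean was 6.06-fold higher in glr3.3glr3.6, near that of Col-0 (7.25 ± 5.79). XTH15 (5.70 ± 4.43 against 10.1 ± 4 FPKM, -0.89), XTH9 (9.62 ± 2.01 against 13.2 ± 2.55, -0.42), the expansin EXPA8 (-0.43) and the brassinosteroid synthesis enzyme DWF4 (3.16 ± 0.591 against 4.46 ± 0.572, -0.40) were lower as well. EXPA8 lost its call without any of 15 libraries (adjusted p up to 0.0860), and of the 5 only XTH19 was called without the replicate block.

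**Figure D3:**
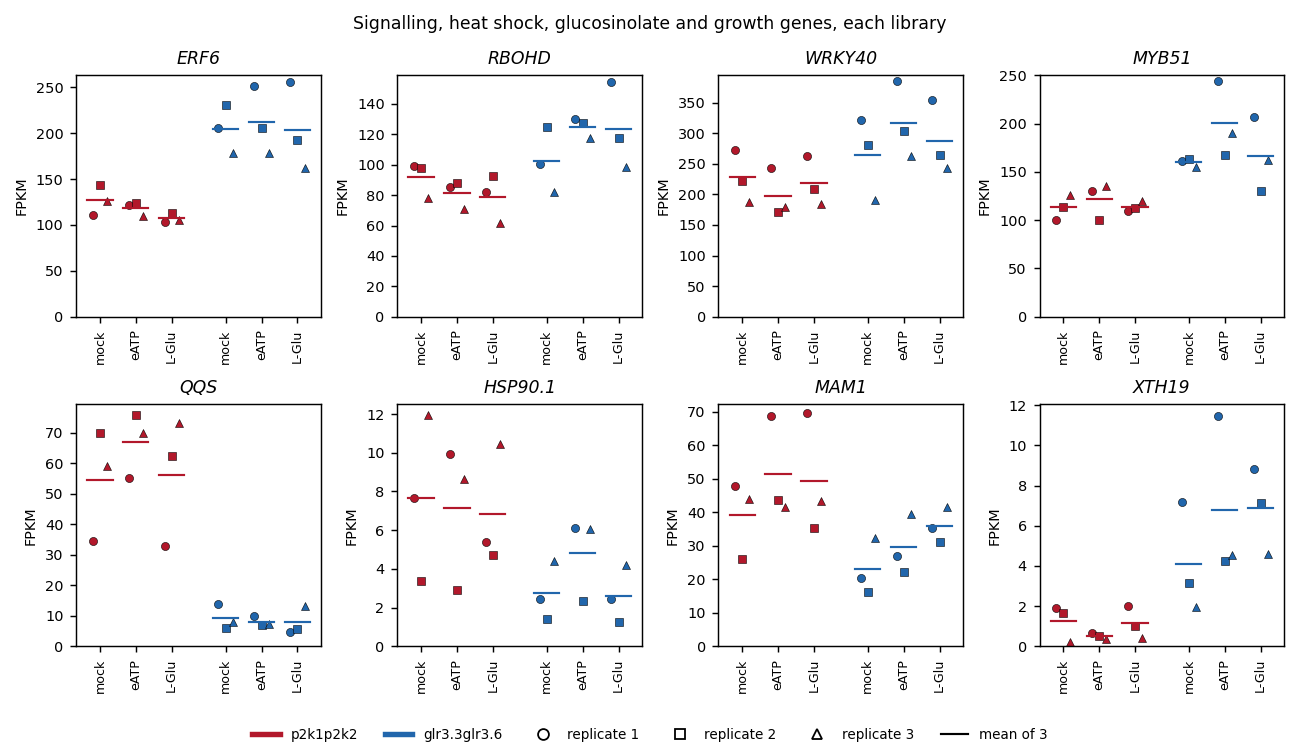
FPKM of ERF6, RBOHD, WRKY40, MYB51, QQS, HSP90.1, MAM1 and XTH19 in each mutant library, by treatment, with marker shape for replicate number and a bar at the mean of 3. ERF6, QQS and XTH19 differ in level in every treatment, while RBOHD and WRKY40 differ by -0.15 and -0.20 in mock and by -0.62 and -0.68 after eATP, a change that was not called (adjusted p = 0.21 and 0.124).

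The remaining lists held few called genes, to be set against 2.8% called over all genes tested. Of 14 tested ethylene genes, the synthesis enzyme ACO4 (0.21), the receptor ERS1 (0.20) and the F-box protein EBF2 (0.26) were higher and the synthesis enzyme ACS6 (-0.36) lower. All 4 lost the call without the replicate block (0.243 to 0.677) and without several single libraries (14 for ACO4, 13 for ERS1, 5 for EBF2 and 5 for ACS6; adjusted p up to 0.0936, 0.0701, 0.0581 and 0.0583). LOX2, a lipoxygenase of jasmonate synthesis, was 144 ± 89.8 against 70.2 ± 33.4 FPKM (0.93, adjusted p = 0.0385), the only call among 13 tested, and it was lost without any of 13 libraries (up to 0.0735). BOA, a clock gene of the evening, was the only call among 10 (1.05 ± 0.239 against 1.76 ± 0.449 FPKM, -0.42, adjusted p = 0.0173), and RD20 the only call among 19 genes for abscisate, drought and cold (15.3 ± 6.49 against 8.17 ± 2.31). QQS was the only call among 14 genes for starch and carbon. By limma 0 genes were called among 6 apyrases, 17 jasmonate repressors, catabolic enzymes and outputs, 17 genes for glutamate and nitrogen metabolism, 20 for photosynthesis, 8 of the morning clock and 3 for flavonoids; the counts at an unadjusted p under 0.05 over all genes were 3063 of 16594. None of 30 tested markers of guard cells, epidermis, vasculature, dividing cells or senescence was called over the 3 treatments. The largest marker difference was PDF1, an epidermis gene of young leaves (3.44 ± 4.24 against 6.68 ± 5.90 FPKM, -0.82, adjusted p = 0.072, limma). It was the only negative difference among 7 tested epidermis and trichome markers, of which 6 were positive (median 0.06). In whole leaves, fewer cells of a type and less RNA per cell cannot be told apart.

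**Figure D4:**
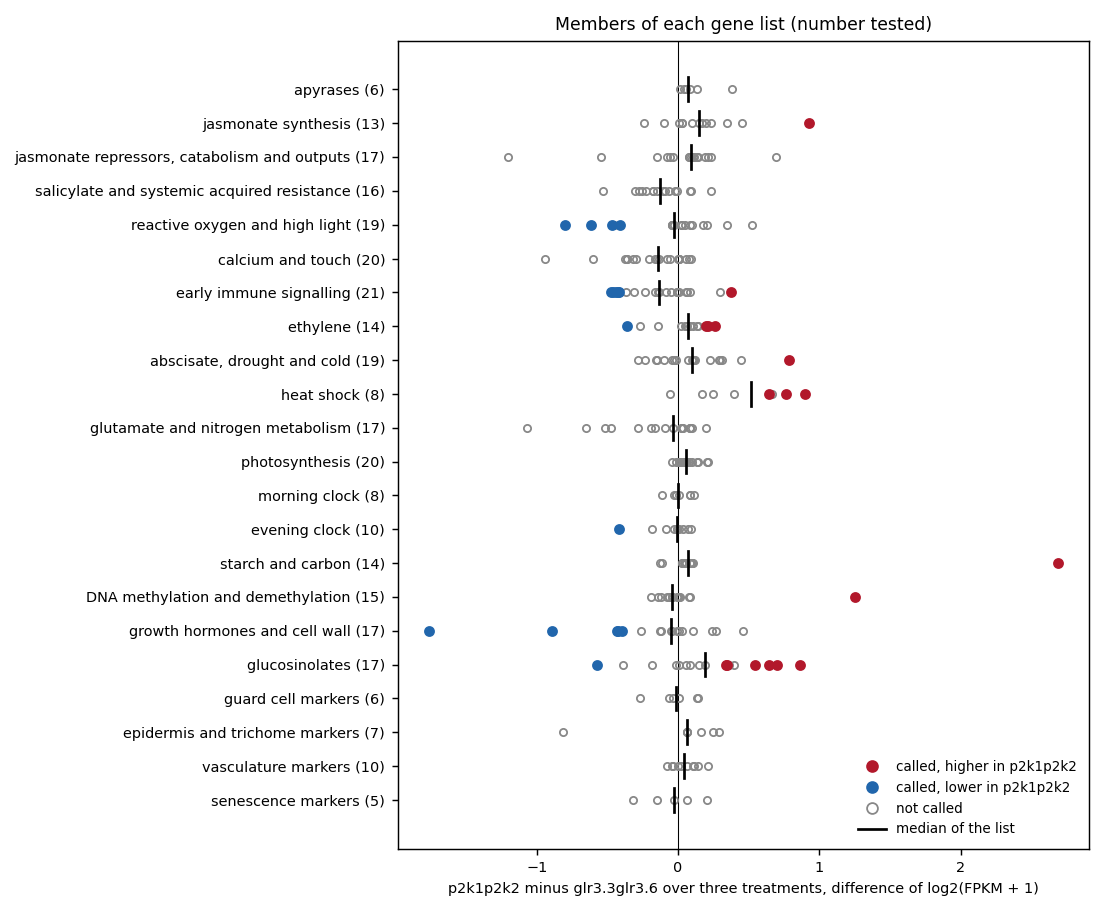
Difference over 3 treatments for each tested member of the lists with at least 5 tested members, in log2(FPKM + 1). The lists of clade 3 channels and of lectin receptor kinases are not drawn. Filled circles were called, open circles were not, and the bar is the list median. Called members are all higher for heat shock, all lower for reactive oxygen and for growth, and mixed for glucosinolates.

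The mock contrast compares the lines after mock solution on the local leaf, without eATP or L-Glu. No library came from plants left without any solution. It was taken from the fit on all 18 libraries, which share the estimates of spread and of the replicate number, and 160 genes were called (0.964%), 82 higher (0.494%) and 78 lower (0.47%) in p2k1p2k2. Of these, 67 were also called over the 3 treatments. Of 13 tested jasmonate synthesis genes 4 were called in mock, all higher in p2k1p2k2, and the list median was 0.89 against 0.01 for all genes; of 17 tested jasmonate repressors, catabolic enzymes and outputs 1 was called, JAZ1, with a median of 0.59. The 4 synthesis genes were named after their values were seen. OPR3, the reductase of jasmonate synthesis, read 448, 158 and 147 FPKM in p2k1p2k2 mock and 121, 68.5 and 86.0 in glr3.3glr3.6 mock (1.28, adjusted p = 0.0373, limma). The lipoxygenase LOX3 read 86.3, 30.9 and 23.6 against 21.7, 12.2 and 16.5 (1.23, adjusted p = 0.0433). The cyclases AOC1 (0.89) and AOC3 (0.97) were higher as well. In each of the 4, p2k1p2k2 was higher in 3 of 3 pairs and p2k1p2k2 mock 1 was the highest library. JAZ1, a repressor that jasmonate itself induces, read 377, 220 and 188 FPKM against 250, 138 and 117 (0.65, adjusted p = 0.00751, limma).

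None of these 4 synthesis genes was called after either treatment. After eATP the median of the 13 synthesis genes was -0.06 and after L-Glu -0.17; OPR3 differed by -0.06 and -0.18 and LOX3 by -0.47 and -0.31. After eATP the called synthesis gene was LOX4, lower in p2k1p2k2 (100, 38.2 and 46.0 against 132, 84.9 and 63.4 FPKM, -0.66, adjusted p = 0.0336, limma). The difference between treatments was itself tested, and for these 5 synthesis genes it missed the threshold for eATP (adjusted p = 0.0557 to 0.153) and for L-Glu (0.0887 to 0.218).

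Also in mock, HSP101 (0.88), HSP90.1 (1.15) and HSP70 (1.26) were called higher, while the heat shock factor HSFA7A was lower (5.97, 4.68 and 10.1 against 10.5, 9.16 and 13.0 FPKM, -0.63, adjusted p = 0.0207, limma). The antioxidant enzyme APX1 (0.57) and the alternative oxidase AOX1A (0.52) were higher, and ERF5 (-0.70), ERF6 (-0.69) and ERF104 (-0.89) lower. The dehydrin ERD10 (0.66) and PEPR1, a receptor for danger peptides (0.56), were higher and WRKY70, a factor of salicylate signalling (-0.72), was lower. GA2OX6, which inactivates gibberellin, was higher (0.55), and QQS, ORTHL, P2K1 and P2K2 were higher as over the 3 treatments. By size, the genes called in mock and not over the 3 treatments were led by AT3G01555 (2.2), AT4G06985 (2.12), AT1G20070 (1.89), HVA22D (1.35) and GSTU5 (1.34), and, lower, by AT5G40153 (-2.12), AT5G19190 (-1.09), CML30 (-0.96), KCS12 (-0.93) and ERF104. The mock count rested on its libraries. It was 17 without glr3.3glr3.6 mock 2, 16 without glr3.3glr3.6 mock 3, 18 without p2k1p2k2 mock 1, 79 without p2k1p2k2 mock 2, 105 without p2k1p2k2 mock 3, 94 without p2k1p2k2 eATP 2, 101 without p2k1p2k2 L-Glu 2 and 255 without glr3.3glr3.6 mock 1. It was 11 without the replicate block and 2 in a fit of the 6 mock libraries alone. Of 36 mock calls followed through the alternatives, 4 held whichever single library was left out (GLR3.6, ORTHL, P2K1 and P2K2), and GLR3.6, ORTHL, P2K2 and QQS were called without the block. ERF104 lost its call without any of 14 libraries, ERF5 of 12, GA2OX6 of 11, PEPR1 of 8, WRKY70 of 7, HSP70 of 6, ERF6, AOX1A and ERD10 of 5, and APX1, HSP101, HSP90.1 and HSFA7A of 4. OPR3 lost its call without any of 7 libraries, LOX3 of 13, AOC1 of 14, AOC3 of 14 and JAZ1 without glr3.3glr3.6 mock 3 or p2k1p2k2 mock 1 (adjusted p up to 0.249), and none of these 5 was called without the block.

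After eATP 184 genes were called (1.11%), 59 higher (0.356%) and 125 lower (0.753%) in p2k1p2k2; after median-of-ratios scaling there were 193, 37 higher and 156 lower, so that the share of higher calls moved from 32.1% to 19.2%. Of the 184, 96 were also called over the 3 treatments. Of the early immune genes 4 were called, all lower: WRKY40 (243, 171 and 180 FPKM in p2k1p2k2 against 385, 303 and 263 in glr3.3glr3.6; -0.68, adjusted p = 0.00194, limma), WRKY18 (-0.67), MPK3 (-0.66) and WRKY33 (-0.58). The list median of their 21 genes was -0.36 after eATP, 0.06 in mock and -0.02 after L-Glu. RBOHD (85.3, 88.0 and 70.6 against 130, 128 and 118 FPKM, -0.62, adjusted p = 0.0161, limma), ERF5 (-0.70), ERF6 (-0.82), MYB51 (-0.71), ACS6 (-0.55), the salicylate regulator CBP60g (-0.47) and the touch-induced calmodulin-like TCH3 (-0.35) were also lower. For none of these was the difference between the eATP and the mock comparison called (adjusted p = 0.124 to 0.999). CER6, a wax synthesis enzyme of the epidermis, was higher (191, 125 and 198 against 119, 99.2 and 128 FPKM, 0.54, adjusted p = 0.0190, limma), as was the sugar exporter SWEET11 of the phloem (0.59). CER6 was the only call after eATP among 7 tested epidermis and trichome markers (median 0.31). SWEET11 was the only one among 10 tested vasculature markers (median 0.03). Among genes called after eATP and not over the 3 treatments, XERICO, a RING protein that raises abscisate levels, read 30.9, 24.6 and 35.5 FPKM against 15.7, 15.3 and 19.7 (0.80, adjusted p = 0.00432, limma). GNA1 (1.63), OFP16 (0.87), the chloroplast development factor GLK2 (0.83) and UGT84A3 (0.80) were higher, and MIOX2 (-1.26), AT1G05933 (-1.17), AT3G12910 (-1.16), AT4G18250 (-1.12) and IGMT2 (-1.02) lower. Of 32 eATP calls followed, 7 held whichever single library was left out (GLR3.6, P2K2, QQS, ORTHL, XTH19, WRKY40 and XERICO) and 25 did not. SWEET11 lost its call without any of 13 libraries, TCH3 of 9, WRKY33 of 8, ERF5 of 7, ACS6 of 6, WRKY18, RBOHD and MYB51 of 5, CBP60g, CER6, GNA1 and GLK2 of 4, and MPK3 and ERF6 of 3. Without the block GLR3.6, P2K2, QQS and ORTHL were called among the 32; the adjusted p was 0.856 for WRKY40, 0.37 for XERICO, 0.867 for CBP60g, 0.889 for CER6 and 0.971 for ACS6. The count was 56 without glr3.3glr3.6 eATP 1, 84 without glr3.3glr3.6 eATP 3, and 62, 35 and 76 without p2k1p2k2 eATP 1, 2 and 3. It was 9 without the replicate block, and 132 in a fit of the 6 eATP libraries alone, 18 higher and 114 lower (13.6% higher).

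After L-Glu 39 genes were called (0.235%), 15 higher (0.0904%) and 24 lower (0.145%) in p2k1p2k2, and 32 of them were also called over the 3 treatments. RBOHD (82.1, 92.9 and 61.7 FPKM in p2k1p2k2 against 155, 118 and 98.3; -0.64, adjusted p = 0.0294, limma) and ERF6 (-0.89) were lower and HSP90.1 (1.13) was higher. The 7 genes called after L-Glu and not over the 3 treatments were AT1G64561 (0.82), CYCA1;2 (0.63) and the annexin ANNAT2 (0.47), higher, and AT4G27654 (-1.85), the anion channel SLAH2 (-0.83), the receptor-like kinase B120 (-0.66) and the kinase S6K2 (-0.55), lower. B120 and S6K2 were also called lower after eATP (-0.59 and -0.54). CYCA1;2 lost its call without any of 15 libraries, S6K2 of 12, AT1G64561 and ANNAT2 of 10, B120 of 5, SLAH2 of 4 and AT4G27654 of 3. Of 16 L-Glu calls followed, 6 held whichever single library was left out (GLR3.3, GLR3.6, ORTHL, P2K2, QQS and XTH19); HSP90.1 lost its call without any of 7 libraries, RBOHD of 5 and ERF6 of 3. SLAH2 was the only one of the 7 called without the replicate block (adjusted p = 0.029). The count was 17 without glr3.3glr3.6 L-Glu 1 or without p2k1p2k2 L-Glu 1, 13 without the block and 11 in a fit of the 6 L-Glu libraries alone.

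Whether the lines answered a treatment differently was asked with an interaction term, the difference after treatment minus the difference in mock. For eATP 3 genes were called (0.0181%), all with a lower response in p2k1p2k2. JAZ1 differed by 0.65 in mock and by -0.33 after eATP: it read 377, 220 and 188 FPKM in p2k1p2k2 mock and 277, 151 and 147 after eATP, against 250, 138 and 117 and then 329, 210 and 181 in glr3.3glr3.6 (interaction -0.98 ± 0.13, adjusted p = 0.0225, limma). UCP5, a dicarboxylate carrier of mitochondria, read 89.2, 98.6 and 66.6 FPKM in p2k1p2k2 mock and 71.2, 69.9 and 50.9 after eATP, against 71.9, 69.7 and 57.2 and then 97.6, 106 and 88.1 in glr3.3glr3.6 (-0.95 ± 0.11, adjusted p = 0.0127, limma). GGP1, a peptidase of glucosinolate and glutathione conjugate processing, showed the same pattern (-0.97 ± 0.14, adjusted p = 0.0308, limma). For each of the 3 genes, p2k1p2k2 was lower after eATP than in mock at all 3 numbers and glr3.3glr3.6 was higher at all 3. The mock libraries enter both sides of this test and of the L-Glu test. After L-Glu, against the same mock libraries, the mean log2 changes in p2k1p2k2 were -0.18 for JAZ1, -0.25 for UCP5 and -0.33 for GGP1. In glr3.3glr3.6 they were 0.54, 0.37 and 0.53. In Col-0 the mean changes after eATP were 0.09 for JAZ1, 0.09 for UCP5 and 0.28 for GGP1. JAZ1 lost its call without any of 7 libraries, GGP1 of 9, and UCP5 without glr3.3glr3.6 eATP 2, glr3.3glr3.6 eATP 3 or p2k1p2k2 eATP 2 (adjusted p up to 0.0936, 0.112 and 0.0793). The count ranged from 0 to 65 as single libraries were left out and was 0 without the replicate block, where the adjusted p of all 3 was 1.

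For L-Glu 0 genes were called by limma (1533 of 16594 at an unadjusted p under 0.05, where 830 would be the expected number with no difference), and 0 without the replicate block. The 3 with the smallest p were AT4G27654, GGP1 and AT4G04200 (adjusted p = 0.0887 each), so a difference in the L-Glu response between the lines was not called for any gene at this number of libraries. Without 1 library the count ranged from 0 to 19.

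**Figure D5:**
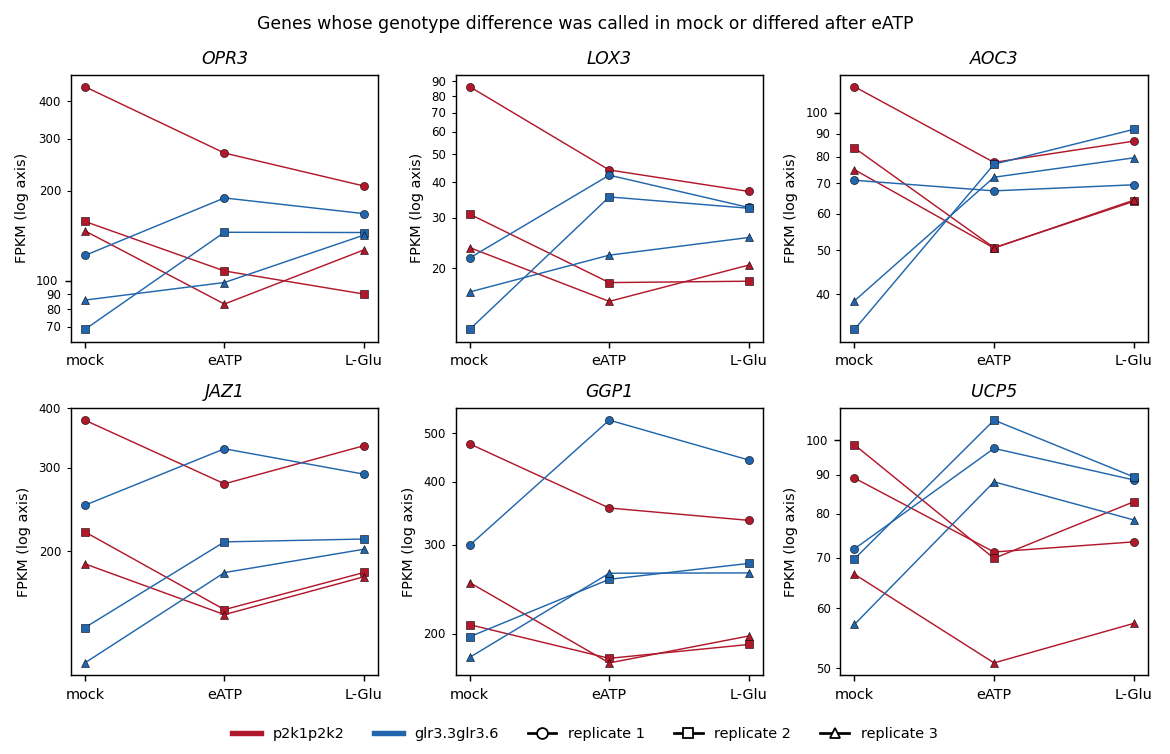
FPKM of OPR3, LOX3, AOC3, JAZ1, GGP1 and UCP5 on log axes, with a line joining the mock, eATP and L-Glu libraries of the same genotype and number. From mock to eATP the 3 p2k1p2k2 lines fall in all 6 panels and the 3 glr3.3glr3.6 lines rise, but for AOC3 at number 1 (71.1 to 67.4 FPKM).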

How the data were processed

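RNA was sequenced from 27 systemic leaf samples. The main fits took all 18 mutant libraries, and alternative fits took more or fewer libraries where stated. The authors deposited FPKM per gene for 32824 genes (32539 matched the RefSeq gene table used for names and gene order). Per the submitters' processing notes, reads were processed with HISAT2 2.2.1, Cufflinks 2.2.1, Cuffdiff 2.2.1, SAMtools 1.19, FastQC 0.11.9 and Trim Galore 0.6.7 on TAIR10; their order and settings are not given in the sources used here. No counts are held in the files, so no count test was run.

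Values were log2(FPKM + 1) for genes whose mean FPKM was 1 or more. limma 3.58.1 in R 4.3.3 (lmFit, contrasts.fit, eBayes with trend) fitted genotype, treatment and replicate number for the comparison over treatments (12 residual degrees of freedom), and 1 mean per group plus number for single treatments and interactions (10). Python 3.11.15, pandas 2.3.3 and matplotlib 3.10.9 made summaries and figures. The fit was tested on simulated data.

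The replicate numbers pair the samples: after group means were removed, libraries of the same number and treatment correlated between the lines at 0.151 to 0.615 in all 9 pairs. What a number shares is not stated.

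Named genes were the 4 targets; the 15 highest and 15 lowest called genes with 1 sign in 9 pairs; called neighbours within 5 genes; called members of 28 lists (380 members), up to 3 with the smallest p where fewer were called; and up to 5 genes each way called in 1 treatment and not over all 3. The comparison, its members and the lists were chosen with earlier results of these data known, and list counts are descriptions.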

Additional observations from a re-analysis of the deposited data

Results flagged for a closer look

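A library was set apart where it lay far from the other 8 of its line in a called, named gene; 5 of 116 sets of 9 libraries met this, and about 1 in 20 would by chance. FLS2 read 19.0 FPKM in glr3.3glr3.6 eATP 1 and 28.2 to 32.5 in the other 8. The other 4 cases were the highest of 9 p2k1p2k2 libraries: GLR3.3 at 5.22 FPKM in eATP 2 (3.43 to 4.26 elsewhere), GLR3.6 at 1.67 in mock 3 (0.814 to 1.2), and 2 neighbouring transcripts in mock 2, MRD1 at 1.37 (0 to 0.481) and AT1G07887 at 2.44 (0 to 0.686).

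The response to eATP differed between the lines, by the interaction test in limma, for JAZ1 (-0.98), GGP1 (-0.97) and UCP5 (-0.95), each with a lower response in p2k1p2k2. Each lost its call without some single libraries, and none was called without the replicate block. Their mean levels also fell in p2k1p2k2 and rose in glr3.3glr3.6 from the same mock libraries to L-Glu.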

How the results depend on the processing

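Counts are given in the order over 3 treatments, mock, eATP, L-Glu, eATP response difference and L-Glu response difference, where the main counts are 464, 160, 184, 39, 3 and 0. Without the replicate block they were 52, 11, 9, 13, 0 and 0, so most calls rest on pairing the libraries by number; 36 of the 58 named genes lost their call there. With each combination of treatment and number as a replicate block 242 genes were called over the 3 treatments. An alternative chosen after seeing the data, the 3 treatments averaged within genotype and number with the block, called 18, with 6 values in place of 18. The 6 libraries of a treatment fitted alone gave 2 in mock, 132 for eATP (78 shared with the 184) and 11 for L-Glu (9 shared with the 39). Mock fell to 37 with no filter on low values, 85 with Col-0 in the fit and 101 with no intensity trend. Library weights gave 320 for eATP, 67 for L-Glu, 50 for the eATP and 2 for the L-Glu response difference. The eATP response difference was 6 with a pseudocount of 0.1, 5 with no filter, 38 at a minimum of 5 FPKM, 1 with quantile normalization, 7 with Col-0 in the fit and 1 with no trend. The cause was not tested. Leaving out 1 library at a time gave 269 to 482, 16 to 255, 35 to 223, 17 to 43, 0 to 65 and 0 to 19. Leaving out all libraries of 1 number gave 79 to 151, 8 to 49, 8 to 30, 8 to 17, 0 to 7 and 1 to 5, from 12 libraries. Among named genes only uncalled ones changed sign: APY7 (-0.01 without replicate 1, up to 0.16 without replicate 3) and CHS (-0.15 without replicate 3, up to 0.32 without replicate 1, -0.08 without glr3.3glr3.6 mock 3, -0.02 without p2k1p2k2 eATP 3). Depth limits low genes most, and FPKM do not allow a count model.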
